A study of Danio rerio with 8 samples.

Results

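Ribosomes are assembled in the nucleolus, where RNA polymerase I transcribes the large ribosomal RNA precursor and RNA polymerase III supplies 5S RNA and the transfer RNAs. Small nucleolar ribonucleoproteins (snoRNPs) modify the precursor, the small-subunit processome cuts and folds its 18S part, and a separate set of assembly factors matures the 28S and 5.8S parts into the large subunit. The kinase complex mTORC1 is known to promote transcription by both polymerases, and RagA, the small GTPase encoded by rraga, brings mTORC1 to the lysosome when amino acids are present.

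The genes described here are the ribosome biogenesis factors and the subunits of RNA polymerases I and III, chosen by name: every gene in the deposited table named nop, utp or rrp with a number, or starting with polr1 or polr3, together with 17 further genes such as fbl, dkc1, ncl and the pes, bop1 and wdr12 trio. The choice found 53 of 24221 genes, and 52 of the 16086 tested genes. The one that was too low to test, polr3g, had raw counts of 0 to 8 per library. Of the 53 deposited names, 51 matched the symbol in a reference table of gene names, apart from letter case, and that table gives utp11l and pes as UTP11 and PES1.

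Polyadenylated RNA was sequenced from GFP-positive macrophages, marked through the mpeg promoter and sorted from dissociated TL-strain zebrafish larvae 6 days after fertilization. There were 4 libraries from rraga mutant larvae and 4 from their wild-type siblings, all raised in water with methylene blue and PTU, a pigment inhibitor. The allele is not named, the genotype was scored on live larvae by microscopy, and neither the number of larvae per library nor a shared clutch is stated. Libraries carry the numbers 1, 2, 4 and 5 in each genotype. Values per library are given below in that order, as CPM, counts per 1000000 on scaled library sizes. Because RNA was selected by its poly(A) tail, the products of these enzymes (ribosomal, transfer and small nucleolar RNA) were not the measurement, only the messengers of the proteins. A lower CPM value cannot tell fewer cells that express a gene from less of its RNA per cell.

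Libraries held 24940664 to 30911560 counts. rraga itself stood at 193, 220.4, 195 and 189 CPM in mutants and 129, 135, 136 and 114 CPM in siblings, higher in every mutant library. Macrophage markers were present in all libraries, with 14 of them taking 0.570% to 0.671% of counts in mutants and 0.805% to 0.953% in siblings. Of these markers 7 fell, among them mpeg1.1, whose promoter drove the sorted GFP, and 1 rose. Transcripts of other cells were also seen: 14 muscle genes took 0.0566% to 0.480% of mutant and 0.445% to 0.648% of sibling counts, 10 epithelial genes 0.0479% to 0.142% and 0.0960% to 0.181%, and 9 neutrophil genes 0.115% to 0.306% and 0.144% to 0.464%. The epithelial genes did not move together: anxa1a rose (mean 456 CPM in mutants and 86.9 in siblings). cyt1 (77.0 and 268), cyt1l (41.3 and 148) and agr1 (4.9 and 15.8) fell, and the other 5 tested did not pass. Of the 9 tested epithelial estimates 8 were negative. Among the epithelial markers epcam was at 0 to 4 counts per library, and among the muscle markers mylpfa was at 0 to 5. Of 7 erythroid genes listed only 3 were found by name, and these took at most 0.00676% of counts, so erythroid RNA may be undercounted. Neuronal genes took at most 0.00315%, and liver, pancreas and gut genes 0.0117% to 0.0731% in mutants and 0.0341% to 0.189% in siblings. Endothelial genes took 0.0249% to 0.0287% and 0.00937% to 0.0115%, most of it ramp2 (mean 233 CPM in mutants and 62.3 in siblings). ramp2, fli1a and pecam1 rose, while the defining markers kdrl, cdh5 and egfl7 had 0 to 26 counts per library, too few to test, with lower means in mutants (kdrl 0.165 against 0.328 CPM). The part of these cells in the results below was not tested.

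To determine how rraga mutation altered this machinery, the messengers were compared between genotypes. In mutants 21 of the 52 tested genes fell and 2 rose, while 29 did not pass the test (quasi-likelihood test of edgeR, threshold 0.05 after Benjamini-Hochberg adjustment over all tested genes). Over all tested genes 28.4% were called, 13.9% lower and 14.5% higher, whereas 40.4% of the biogenesis and polymerase genes were lower and 3.85% higher. Of all calls 51.1% were higher, a share that was 34.7% when libraries were scaled by size alone. The median log2 fold change of the 52 genes was -0.47, against -0.09 for all tested genes, and 45 of the 52 estimates were negative. The falls were moderate in size, 1.28-fold to 2.56-fold. Against a minimum fold of 1.5 (glmTreat), 3 of the 52 genes fell (rrs1, nop56 and nop53) and 1 rose (polr3k). At that setting 4.61% of all tested genes fell and 5.35% rose, so 3 falls in 52 were near the share of all genes. Nearly all of the falls were among the better measured genes: of the 38 with a mean of at least 10 CPM, 20 fell and 1 rose (median log2 fold change -0.51), where 17.3% of all genes at that level fell, 24.6% rose and the median was 0.08. Of the 14 genes under 10 CPM, 1 fell and 1 rose, where 10.8% of all genes at that level fell and 5.54% rose. The low genes thus showed no excess of falls. All of these counts come from tests that did not pair libraries. A fit blocked on library number gave 30 falls and 2 rises among the 52, beside 16.6% lower and 17.8% higher over all tested genes.

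**Figure D1:**
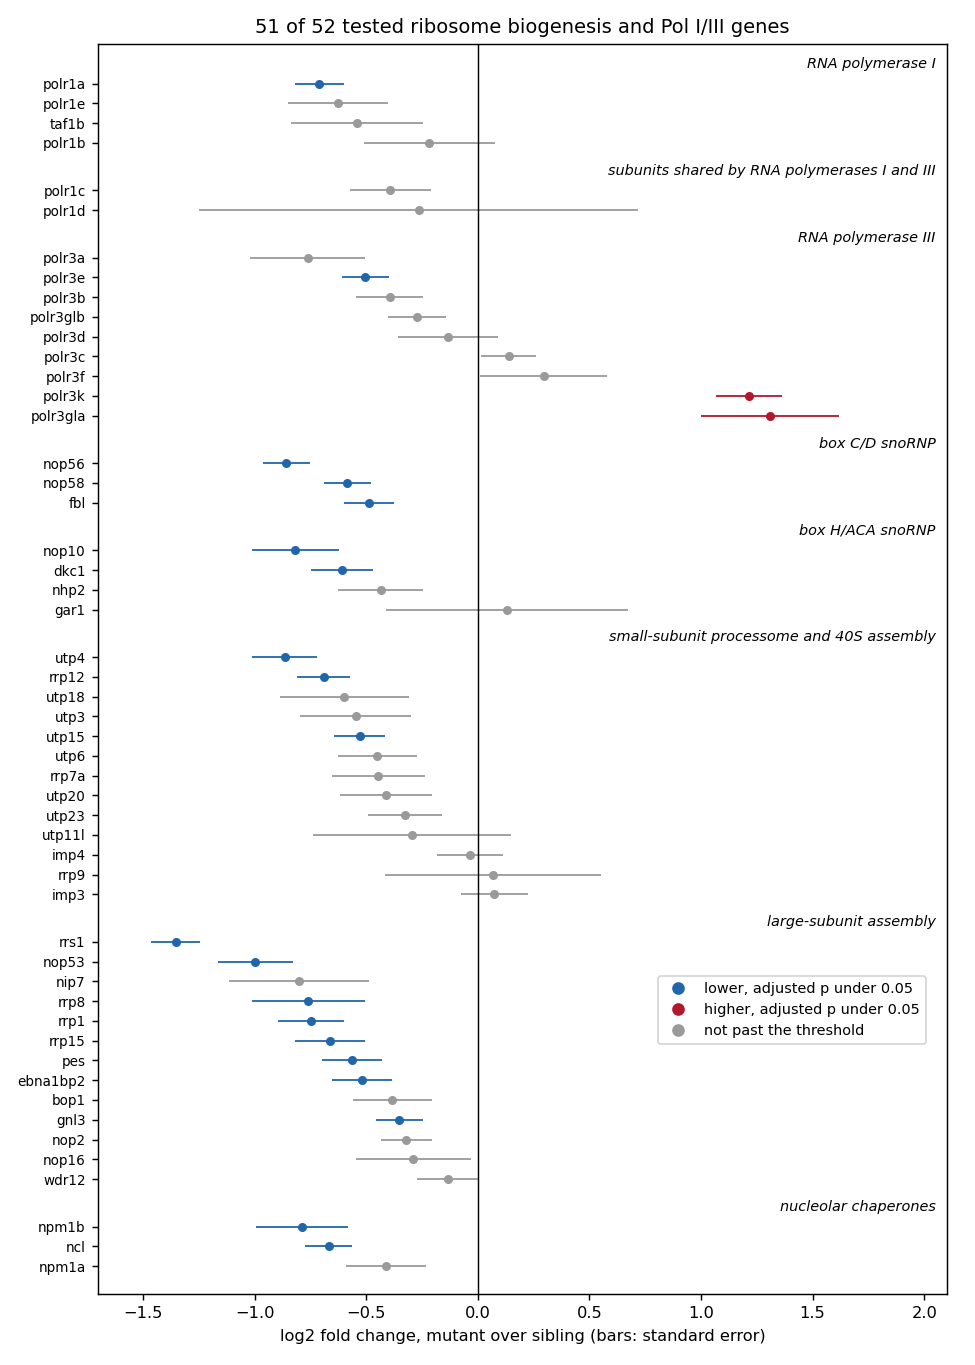
Log2 fold change of 51 of the 52 tested genes, mutant over sibling, grouped by role; points are estimates from 4 against 4 libraries and bars are standard errors. Blue genes fell and red genes rose at an adjusted p under 0.05, and most estimates lie left of 0, with polr3k and polr3gla at the far right.

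Summed over all 53 genes, the transcripts took, of each library's unscaled total, 0.180%, 0.174%, 0.216% and 0.190% of counts in mutants and 0.327%, 0.303%, 0.285% and 0.352% in siblings. Every mutant library lay below every sibling library, with means of 0.190% ± 0.0185 and 0.317% ± 0.0290 (SD, n = 4). The same held for each of the 8 roles on that scale, including the RNA polymerase III subunits, where the range was 0.0140% to 0.0151% in mutants and 0.0164% to 0.0201% in siblings. On the TMM-scaled CPM used for the tests, 6 of the 8 roles kept the genotypes apart. The summed CPM of the shared subunits then overlapped (12.9 to 17.7 in mutants, 16.1 to 21.5 in siblings), as did that of the box H/ACA genes (138 to 200 and 189 to 278). Among the mutants, library 4 was highest for 33 of the 52 genes and library 2 lowest for 21. Among the siblings, library 1 was highest for 20 and library 2 lowest for 25. How often each library was highest or lowest over all tested genes was not counted, so this order may not be particular to the 52. Mutant library 4 had few muscle transcripts (0.0821% of counts) and so did mutant library 2 (0.0566%). Neutrophil genes took 0.209%, 0.115%, 0.306% and 0.123% of counts in the mutants, highest in library 4 and lowest in library 2. Liver, pancreas and gut genes had the same extremes (0.0731% and 0.0117%). Cell cycle genes were also highest in mutant library 4 (0.175%), and lowest in mutant library 1 (0.134%). Muscle, epithelial, erythroid, neuronal and endothelial genes were not highest in mutant library 4. The part of other cells or of cell division in this order was not tested. At the level of single genes, CPM values did not overlap between genotypes in 26 of the 52, 24 with the mutants below and 2 with the mutants above. Over all tested genes the genotypes did not overlap in 31.4%, with the mutants below in 15.7% and above in 15.7%.

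**Figure D2:**
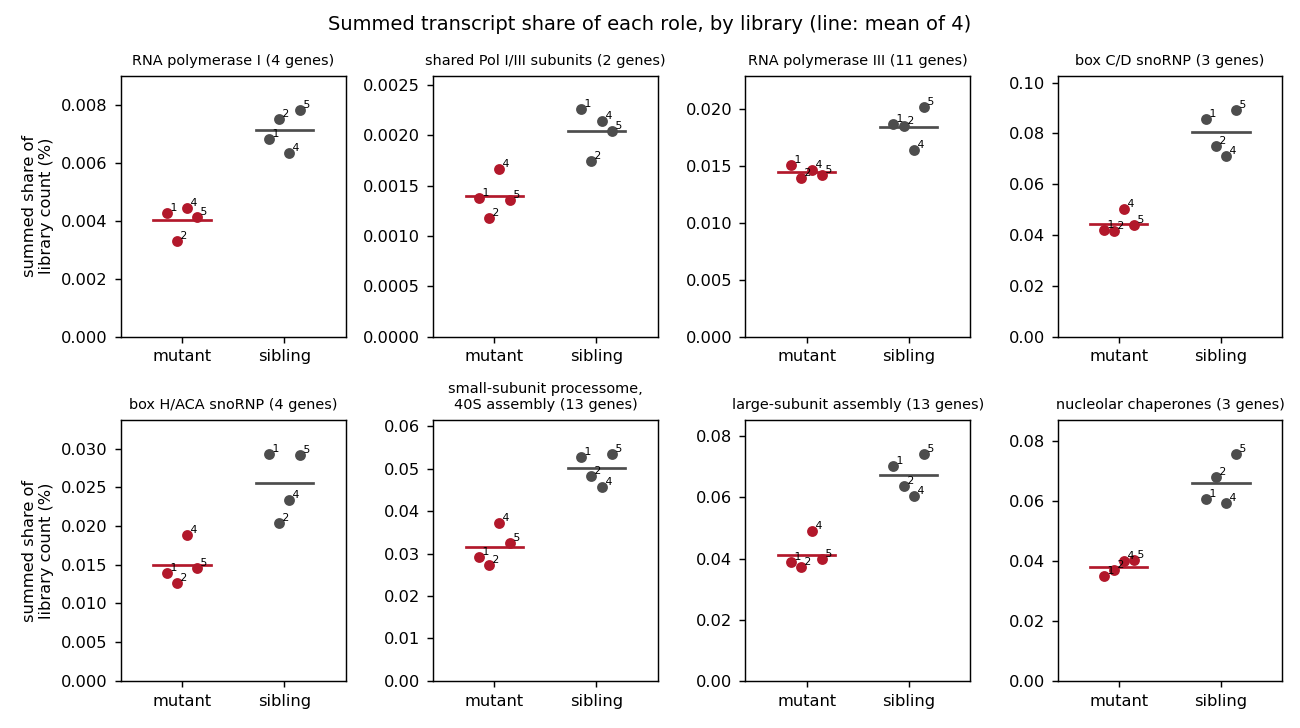
Summed share of the library's unscaled counts, in percent, taken by the genes of each role; each point is a library with its number, and the line is the mean of 4. On this scale, in all 8 panels, the 4 mutant libraries lie below the 4 sibling libraries, from 0.0414% to 0.0501% against 0.0713% to 0.0893% for the box C/D genes.

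RNA polymerase I transcribes the long ribosomal precursor. Its largest, catalytic subunit gene polr1a (ENSDARG00000098375, GRCz11 chromosome 14, 16151368 to 16212896) stood at 32.1, 27.0, 32.2 and 29.5 CPM in mutants and 46.1, 52.3, 46.2 and 53.2 CPM in siblings. All mutant values were below all sibling values, with a log2 fold change of -0.71 (SE 0.110, adjusted p = 0.00140). polr1b, for the second largest subunit, was at 5.33, 2.68, 5.76 and 4.08 CPM in mutants and 4.47, 4.69, 7.16 and 4.46 CPM in siblings. These overlapped and the gene did not pass (adjusted p = 0.633). polr1e, for the subunit known as PAF53 in mammals, was at 6.24, 4.34, 4.83 and 5.98 CPM in mutants and 10.3, 7.82, 6.07 and 8.80 CPM in siblings, and its log2 fold change of -0.63 (SE 0.225, adjusted p = 0.0657) missed the threshold, with mutant library 1 inside the sibling range. A call appeared in the fit blocked on library number (0.0359) and without sibling library 4 (0.0416), and also with upper-quartile factors (0.0471), library size alone (0.0317), the filter of 5 CPM in 4 libraries (0.0336) and DESeq2 (0.0484). taf1b, a subunit of the SL1 factor that places the enzyme on the ribosomal promoter, was at 1.94, 2.15, 4.32 and 2.92 CPM in mutants and 4.01, 4.56, 3.83 and 4.10 CPM in siblings and did not pass (adjusted p = 0.206), although only mutant library 4 reached the sibling range.

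The subunits shared by RNA polymerases I and III gave no call. polr1c was at 14.3, 10, 17.4 and 13.8 CPM in mutants and 18.7, 15.9, 20.4 and 17.9 CPM in siblings, with mutant library 4 inside the sibling range. Its log2 fold change of -0.39 (SE 0.180, adjusted p = 0.138) was called in the fit blocked on library number (adjusted p = 0.0394) and with library size alone (0.0449). polr1d was scarce and uneven, at 0.475, 2.94, 0.234 and 0.199 CPM in mutants and 2.80, 0.238, 0.939 and 0.591 CPM in siblings, so that mutant library 2 exceeded every other library. Its standard error of 0.982 on the log2 scale left its direction undetermined at this depth, with log2 fold changes of -1.90 without mutant library 2 and 0.70 without sibling library 1.

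RNA polymerase III held the only 2 of the 52 genes that rose. Of its 10 tested subunit genes 2 rose (20%), 2 fell (20%) and 6 did not pass. Over all tested genes 14.5% rose and 13.9% fell, so at 10 genes these shares were near those of all genes. polr3k, which encodes a small subunit that acts in termination and reinitiation (RPC10), lies on chromosome 3, 46380086 to 46384147 of GRCz11. It stood at 25.8, 21.1, 24.5 and 19.9 CPM in mutants and 8.87, 10.2, 8.92 and 11.4 CPM in siblings, more than the highest sibling value in every mutant library. It rose 2.32-fold, a log2 fold change of 1.21 (SE 0.148, adjusted p = 3.9e-04). polr3gla is a copy of the gene for RPC32-beta (POLR3GL), part of the subcomplex that joins the enzyme to its initiation factors. It stood at 5.48, 4.30, 3.12 and 2.52 CPM in mutants and 1.53, 1.80, 1.33 and 1.54 CPM in siblings, low in all libraries but without overlap, with a log2 fold change of 1.31 (SE 0.309, adjusted p = 0.0115). Against a minimum fold of 1.5 it did not pass (glmTreat, adjusted p = 0.0664), and it is too scarce for the filter of 5 CPM in 4 libraries.

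The second copy, polr3glb, was more abundant and did not pass the test. It stood at 10.9, 13.2, 12.9 and 13.3 CPM in mutants and 16.2, 14.5, 15.5 and 14.6 CPM in siblings, with every mutant below every sibling but a log2 fold change of only -0.27 (SE 0.131, adjusted p = 0.153). With library size alone it was called lower (log2 fold change -0.44, adjusted p = 0.0325). Per kilobase of gene length, polr3glb was the main copy in siblings, at 12.2 CPM per kb against 0.901 for polr3gla. The ratio of polr3gla to polr3glb per kilobase was 0.364, 0.236, 0.175 and 0.137 in mutants and 0.0685, 0.0902, 0.0624 and 0.0764 in siblings. The ratio was thus higher in all mutant libraries, while polr3glb stayed the larger of the pair in each. polr3g, whose mammalian counterpart is the paralog used in stem cells, did not exceed 0.263 CPM.

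The other RNA polymerase III subunits were lower or unresolved. polr3e, one of the TFIIF-like pair with polr3d, was at 39.3, 43.2, 47.7 and 38.4 CPM in mutants and 58.97, 57.6, 59.6 and 62.96 CPM in siblings, without overlap, and fell (log2 fold change -0.50, SE 0.105, adjusted p = 0.00630). polr3d was at 4.24, 4.17, 5.88 and 4.08 CPM in mutants and 4.37, 4.35, 5.56 and 5.88 CPM in siblings and did not pass (adjusted p = 0.705). The catalytic subunit gene polr3a was at 3.76, 5.57, 2.69 and 3.22 CPM in mutants and 6.13, 7.38, 6.11 and 6.20 CPM in siblings. Its mutant values all lay below the sibling values, and at a log2 fold change of -0.76 (SE 0.258, adjusted p = 0.0529) it was the gene closest outside the threshold. A call appeared in the blocked fit (0.0284) and without mutant library 2 (0.0171), and also with upper-quartile factors (0.0393), library size alone (0.0209), the 5 CPM filter (0.0221), DESeq2 (0.0334) and limma-voom (0.0242). polr3b, for the second largest subunit, was at 11.9, 10.9, 10.2 and 12.5 CPM in mutants and 17.5, 14.5, 12.7 and 15.2 CPM in siblings, again without overlap (log2 fold change -0.40, SE 0.1503, adjusted p = 0.0797, and adjusted p = 0.0461 when blocked). It was also called with upper-quartile factors (0.0475), library size alone (0.0265) and the 5 CPM filter (0.0357). polr3c, a member of the same subcomplex as polr3gla, was at 30.5, 31.4, 25.2 and 25.8 CPM in mutants and 24.8, 26.7, 27.98 and 23.2 CPM in siblings, and polr3f, the third, at 5.79 to 10.9 CPM in mutants and 4.70 to 8.31 CPM in siblings. Both overlapped and did not pass (adjusted p = 0.455 and 0.487).

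**Figure D3:**
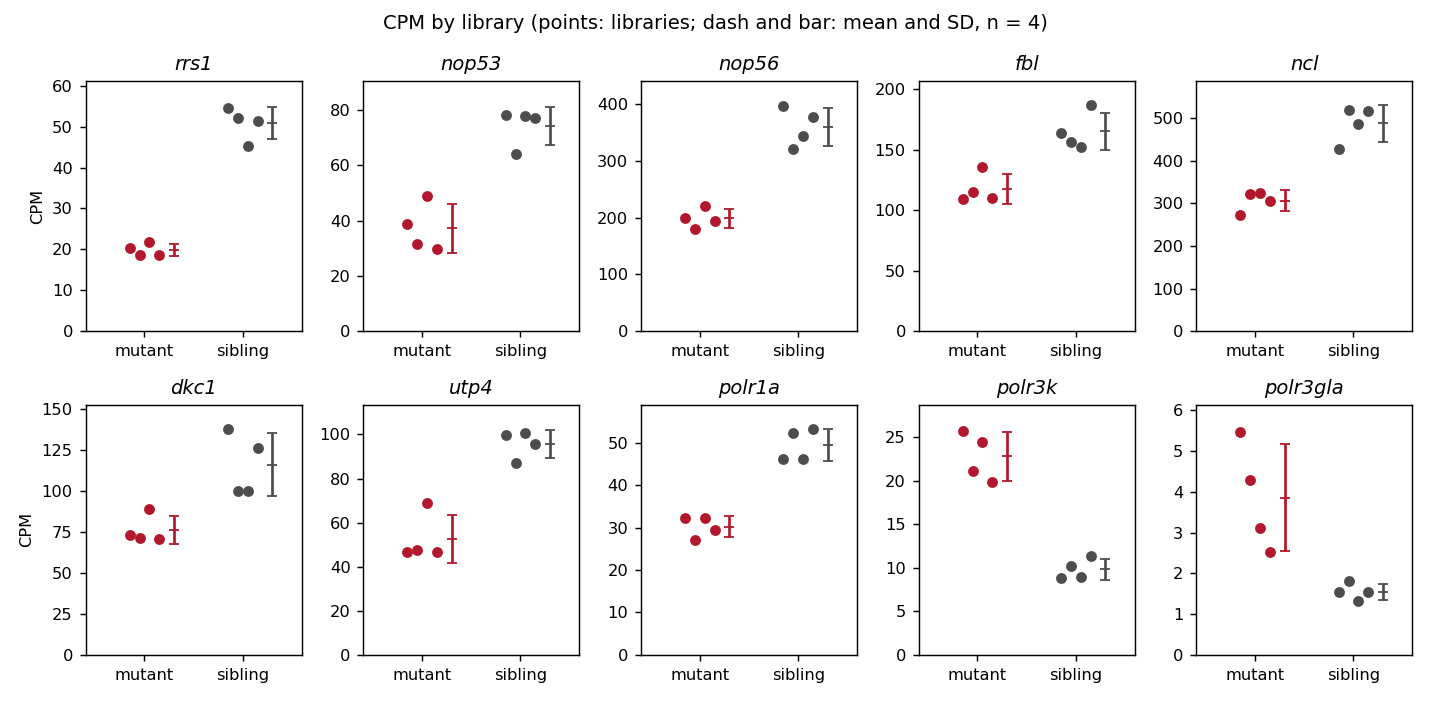
CPM of 10 genes in each library, on linear axes from 0; points are libraries and the dash with its bar is the mean and SD of 4. In each panel the genotypes do not overlap: the first 8 genes are lower in mutants, while polr3k (19.9 to 25.8 against 8.87 to 11.4 CPM) and polr3gla are higher. All 10 are among the 26 of 52 tested genes without overlap, so the panels are not typical of the 52. Over all tested genes 31.4% did not overlap.

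All 3 genes of the box C/D snoRNPs, which guide 2'-O-methylation of ribosomal RNA, fell, where 13.9% of all tested genes were lower. nop56, a scaffold protein of the particle, stood at 200.1, 180.2, 221 and 193 CPM in mutants and 397, 321, 344 and 377 CPM in siblings, so that no mutant library came near the siblings, and fell 1.81-fold (log2 fold change -0.86, SE 0.106, adjusted p = 4.2e-04). Its partner nop58 was at 141, 157, 173 and 147 CPM in mutants and 254, 216, 215 and 241 CPM in siblings, a log2 fold change of -0.58 (SE 0.104, adjusted p = 0.00290). fbl, for the methyltransferase fibrillarin, was at 109.5, 115, 136 and 109.9 CPM in mutants and 164, 156, 152 and 187 CPM in siblings, a log2 fold change of -0.49 (SE 0.111, adjusted p = 0.00952). None of the 3 overlapped between genotypes. In siblings the messengers of the particle were close in level per kilobase, at 115 for fbl, 109 for nop56 and 103 CPM per kb for nop58. The span of nop58 overlaps another gene on the opposite strand. The library kit does not mark strand, so some reads may be shared and its value is uncertain.

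Box H/ACA snoRNPs convert uridine to pseudouridine in ribosomal RNA. dkc1, for the pseudouridine synthase dyskerin, was at 73.0, 71.6, 89.0 and 70.8 CPM in mutants and 138, 99.8, 99.8 and 126 CPM in siblings, without overlap, and fell with a log2 fold change of -0.61 (SE 0.139, adjusted p = 0.00997). nop10, a small protein bound to dyskerin, was at 30.9, 28.2, 46.7 and 30.3 CPM in mutants and 66.0, 43.7, 66.5 and 63.4 CPM in siblings. Mutant library 4 reached above sibling library 2, and the gene fell with a log2 fold change of -0.82 (SE 0.197, adjusted p = 0.0128). nhp2 was at 42.0, 36.9, 60.6 and 44.1 CPM in mutants and 69.3, 44.4, 64.5 and 70.2 CPM in siblings, overlapping, and did not pass (adjusted p = 0.123), although it did in the blocked fit (0.0410), with library size alone (0.0439) and without mutant library 4 (0.0379). gar1 was at 3.50, 1.36, 3.66 and 4.35 CPM in mutants and 4.79, 0.748, 2.43 and 3.81 CPM in siblings, a wide scatter in both genotypes (SE 0.541 on the log2 scale), which does not allow a direction.

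In the small-subunit processome and later 40S assembly 3 of 13 genes fell (23.1%, beside 13.9% of all tested genes) and the other 10 did not pass. utp4 and utp15 belong to the subcomplex that binds the precursor first and is linked to its transcription in yeast. utp4 stood at 46.7, 47.5, 69.0 and 46.9 CPM in mutants and 99.9, 86.9, 100.6 and 95.5 CPM in siblings, with all mutants below all siblings (log2 fold change -0.87, SE 0.145, adjusted p = 0.00215). utp15 was at 50.3, 50.5, 64.3 and 55.5 CPM in mutants and 78.5, 72.4, 86.7 and 80.8 CPM in siblings, also without overlap (log2 fold change -0.53, SE 0.114, adjusted p = 0.00749). rrp12, which in yeast acts in late maturation and export of the subunits, was at 60.6, 64.0, 67.9 and 82.4 CPM in mutants and 115, 112, 100.1 and 116 CPM in siblings (log2 fold change -0.69, SE 0.118, adjusted p = 0.00235), again without overlap.

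The U3 snoRNP, itself of the box C/D kind, pairs with the precursor to direct its cleavage. Of its further proteins imp3, imp4 and rrp9, none of which was called, imp3 was at 18.0, 19.0, 25.5 and 20.2 CPM in mutants and 17.9, 20.8, 17.8 and 22.1 CPM in siblings and imp4 at 55.5, 51.2, 63.9 and 49.7 CPM in mutants and 69.6, 57.7, 45.2 and 53.1 CPM in siblings. These ranges overlapped, with standard errors of 0.149 and 0.148 on the log2 scale around estimates of 0.07 and -0.03. rrp9, a protein specific to U3, was at 3.10, 2.5, 7.55 and 3.39 CPM in mutants and 4.11, 1.29, 5.24 and 5.15 CPM in siblings, and its wide scatter (SE 0.485 on the log2 scale) does not allow a direction. The span of imp3 overlaps sec22ba on the opposite strand, which holds 98.3% of the count of imp3, so its value is uncertain. sec22ba rose (log2 fold change 0.36, adjusted p = 0.0462). utp3, known as Sas10 in yeast, was at 8.87, 8.33, 13.4 and 8.93 CPM in mutants and 18.6, 8.91, 15.5 and 14.8 CPM in siblings, overlapping through sibling library 2 alone, and did not pass (adjusted p = 0.134) except without that library (0.0465).

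The remaining 6 processome genes had negative estimates that did not pass, from -0.30 for utp11l to -0.60 for utp18. utp18 and utp6 belong to the same subcomplex. utp18 was at 1.83, 1.40, 2.53 and 2.29 CPM in mutants and 3.88, 2.58, 3.05 and 2.69 CPM in siblings, without overlap at low CPM (adjusted p = 0.157). Its deposited gene length is only 312 bases. Per kilobase it was at a mean of 8.12 CPM over all libraries, beside 8.50 for utp6. utp6 was at 13.5 to 21.8 CPM in mutants and 18.5 to 25.7 CPM in siblings (adjusted p = 0.0914), and passed without mutant library 4 (0.0200), with library size alone (0.0325), the 5 CPM filter (0.0389) and limma-voom (0.0397). rrp7a, at 16.0 to 32.1 and 27.2 to 36.7 CPM (adjusted p = 0.142), passed in the blocked fit (0.0473) and without mutant library 4 (0.0280). utp23 was at 15.4 to 22.2 and 19.1 to 27.4 CPM, and passed with library size alone (0.0471). utp20, a large scaffold protein gene, was at 4.67 to 7.17 and 6.65 to 9.42 CPM. utp20 overlaps arl1 on the opposite strand, which has about 12 times its count (1190%) and rose (log2 fold change 0.46), so the estimate for utp20 is uncertain.

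Large-subunit assembly held the most falls, 8 of 13 genes (61.5%, beside 13.9% of all tested genes). The other 5 were not past the threshold, and all 13 estimates were negative. The largest fall of all 52 genes was that of rrs1 (ENSDARG00000003941, GRCz11 chromosome 24, 23837519 to 23839647), whose yeast counterpart brings the 5S particle into the large subunit. rrs1 stood at 20.4, 18.7, 21.7 and 18.7 CPM in mutants and 54.6, 52.1, 45.3 and 51.4 CPM in siblings. The highest mutant value was less than the lowest sibling value by a wide margin, and the fall was 2.56-fold (log2 fold change -1.35, SE 0.111, adjusted p = 4.0e-05). nop53, which in yeast recruits the RNA exosome to the immature subunit, was at 38.9, 31.4, 49.0 and 29.7 CPM in mutants and 78.3, 64.1, 77.7 and 77.2 CPM in siblings, a log2 fold change of -0.997 (SE 0.167, adjusted p = 0.00214). rrp1, an early assembly factor, was at 14.1, 15.7, 21.2 and 15.9 CPM in mutants and 29.6, 29.5, 26.7 and 26.5 CPM in siblings, a log2 fold change of -0.75 (SE 0.147, adjusted p = 0.00489). Against a minimum fold of 1.5 rrs1 and nop53 passed and rrp1 did not (glmTreat, adjusted p = 0.248).

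The PeBoW complex of pes, bop1 and wdr12 matures the 28S and 5.8S RNAs, and its genes did not share a call. pes was at 29.5, 34.6, 42.4 and 39.3 CPM in mutants and 55.5, 53.5, 58.8 and 47.8 CPM in siblings, without overlap, and fell with a log2 fold change of -0.56 (SE 0.135, adjusted p = 0.0124). bop1 was at 22.0, 23.0, 28.4 and 26.6 CPM in mutants and 35.6, 29.0, 24.5 and 41.4 CPM in siblings, with sibling library 4 inside the mutant range (log2 fold change -0.38, SE 0.177, adjusted p = 0.139). wdr12 was at 31.0, 23.9, 34.2 and 28.9 CPM in mutants and 31.9, 29.4, 30.8 and 37.2 CPM in siblings, with mutant libraries 1 and 4 inside the sibling range (log2 fold change -0.13, SE 0.140, adjusted p = 0.527). Whether these fold changes differ from each other was not tested.

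rrp8, for the enzyme that methylates an adenine of 28S RNA, was the last gene inside the threshold. It stood at 2.56, 1.58, 2.61 and 2.62 CPM in mutants and 4.11, 3.64, 4.27 and 3.87 CPM in siblings, without overlap, a log2 fold change of -0.76 (SE 0.252, adjusted p = 0.0490). It lost the call when any single library was left out (adjusted p from 0.0675 without mutant library 4 to 0.108 without mutant library 2), with median-of-ratios factors (0.0600) and with no filter on low counts (0.106). nop2, for the cytosine methyltransferase of 28S RNA, was at 77.4, 94.4, 87.1 and 71.9 CPM in mutants and 108, 110.2, 91.7 and 103 CPM in siblings. Only mutant library 2 entered the sibling range, and the gene did not pass (adjusted p = 0.0649). A call appeared in the blocked fit (0.0447), without mutant library 2 (0.0461), with upper-quartile factors (0.0336), library size alone (0.0114) or the 5 CPM filter (0.0158), and with limma-voom (0.0423). gnl3, for the nucleolar GTPase nucleostemin, was at 84.9, 81.8, 95.1 and 73.7 CPM in mutants and 114, 102, 102 and 111 CPM in siblings, without overlap, a log2 fold change of -0.35 (SE 0.104, adjusted p = 0.0318). That call was lost when mutant library 1, 2 or 5 or any of the 4 sibling libraries was left out, with adjusted p from 0.0508 without sibling library 4 to 0.137 without mutant library 5. It was also lost with median-of-ratios factors (0.0637) and with no filter (0.114).

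Of the other 4 large-subunit genes, ebna1bp2 and rrp15 fell. ebna1bp2, a partner of rrp1 known as Ebp2 in yeast, was at 36.7 to 48.8 CPM in mutants and 50.4 to 64.5 CPM in siblings (log2 fold change -0.52, SE 0.136, adjusted p = 0.0189). It was not called without mutant library 1 (0.0576), 2 (0.0556) or 5 (0.0709) or sibling library 1 (0.0574) or 5 (0.0721). rrp15 was at 15.8 to 21.7 and 25.4 to 33.9 CPM (log2 fold change -0.66, SE 0.158, adjusted p = 0.0123), also without overlap. nip7 was at 4.74 to 11.6 and 8.57 to 19.2 CPM and did not pass (adjusted p = 0.0876). A call appeared in the blocked fit (0.0122), with library size alone (0.0475), and without mutant library 4 (0.0472) or sibling library 2 (0.0474). nop16 was at 24.0 to 53.7 and 29.9 to 55.8 CPM and did not pass (adjusted p = 0.446).

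The nucleolar chaperones bind RNA and histones and are abundant proteins of the nucleolus. ncl, for nucleolin, was the most abundant messenger of the 53 in raw counts, at 273, 323, 325 and 306 CPM in mutants and 427, 519.5, 487 and 518 CPM in siblings. The mutants all lay below the siblings, a log2 fold change of -0.67 (SE 0.104, adjusted p = 0.00142). Nucleophosmin has 2 genes in the zebrafish. npm1a was at 89.0, 66.6, 87.3 and 95.2 CPM in mutants and 125, 90.1, 90.3 and 145 CPM in siblings, with mutant library 5 inside the sibling range, and did not pass (adjusted p = 0.123) except in the blocked fit (0.0290). npm1b, the scarcer copy, was at 12.4, 13.7, 8.29 and 10.7 CPM in mutants and 24.9, 18.8, 15.1 and 18.9 CPM in siblings, without overlap, and fell (log2 fold change -0.79, SE 0.205, adjusted p = 0.0184). The call of npm1b was lost without mutant library 5 (0.0537) or sibling library 1 (0.0544).

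rraga lies on chromosome 14, and so do 4 of the 53 genes. polr1a starts 2.12 Mb from the start of rraga, polr1d 4.95 Mb, npm1b 8.44 Mb and gar1 29.6 Mb away. Leaving out these 4, a check added once the values were known, gave 19 genes that fell and 2 that rose. Without the 5 genes whose span overlaps another gene with at least 10% of their count (imp3, nop58, polr3c, polr3g and utp20), added likewise, 20 fell and 2 rose.

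The pathway extends beyond the genes the naming rule catches, and further lists of its factors were counted in the same test, beside the 13.9% of all tested genes that were lower. Of 41 other tested genes of the small-subunit processome and 40S maturation 17 fell and the rest did not pass, with a median log2 fold change of -0.43. wdr43, for another protein of the utp4 subcomplex, was at 90.2, 90.4, 130.3 and 105 CPM in mutants and 222, 196, 202 and 214 CPM in siblings (log2 fold change -1.002, SE 0.132, adjusted p = 5.9e-04). tsr1, a late 40S factor, was at 36.4, 35.3, 42.9 and 40.6 CPM in mutants and 76.5, 59.8, 70.2 and 79.0 CPM in siblings (log2 fold change -0.88, SE 0.123, adjusted p = 7.9e-04). Neither overlapped. Of 47 other large-subunit factors 23 fell and the rest did not pass, with a median of -0.55. The helicase gene ddx21, which is also tied to RNA polymerase I transcription, was at 133, 118, 154 and 113 CPM in mutants and 358, 309, 319 and 302 CPM in siblings (log2 fold change -1.31, SE 0.121, adjusted p = 7.8e-05), and rsl24d1 at 98.0, 73.2, 99.8 and 80.6 CPM in mutants and 256, 179, 216 and 202 CPM in siblings (log2 fold change -1.28, SE 0.147, adjusted p = 2.7e-04).

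Among 11 other genes of snoRNP proteins and their assembly 3 fell, including nolc1, for a nucleolar phosphoprotein that binds snoRNPs, at 58.9, 64.2, 58.3 and 72.3 CPM in mutants and 107, 104, 82.5 and 115 CPM in siblings (log2 fold change -0.69, SE 0.128, adjusted p = 0.00368). shq1, a chaperone of dyskerin, was at 2.96, 4.34, 5.02 and 4.25 CPM in mutants and 12.6, 8.91, 11.6 and 8.27 CPM in siblings (log2 fold change -1.32, SE 0.232, adjusted p = 0.00278). Of 14 genes of the RNA exosome, which trims ribosomal precursors, 3 fell, a share of 21.4% beside the 13.9% of all tested genes. exosc1 was at 9.97, 11.5, 10.7 and 10.4 CPM in mutants and 16.3, 15.8, 13.9 and 16.0 CPM in siblings (log2 fold change -0.55, SE 0.130, adjusted p = 0.0122). exosc7 was at 16.0, 14.4, 16.2 and 15.2 CPM in mutants and 19.6, 24.0, 18.1 and 21.9 CPM in siblings (log2 fold change -0.43, SE 0.131, adjusted p = 0.0344), and lost its call when any library other than sibling 4 was left out, with adjusted p from 0.0531 without mutant library 4 to 0.117 without sibling library 2. It was also lost with median-of-ratios factors (0.0527) and with no filter (0.103).

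Factors that start the polymerases were counted with further RNA polymerase I subunits (twistnb, cd3eap and znrd1) and with the RNA polymerase III repressor maf1. Of 9 other RNA polymerase I genes 2 fell (22.2%, beside 13.9% of all tested genes) and 0 rose. Their median log2 fold change was -0.42, and 8 of the 9 estimates were negative. twistnb, a subunit of the enzyme listed as polr1f in the reference table, was at 8.51, 6.67, 12.1 and 9.03 CPM in mutants and 23.7, 21.2, 18.7 and 24.5 CPM in siblings (log2 fold change -1.28, SE 0.195, adjusted p = 0.00127). rrn3, which encodes TIF-IA, the factor through which mTORC1 acts on the enzyme in mammals, was at 31.1, 32.8, 31.6 and 30.9 CPM in mutants and 41.6, 40.3, 38.8 and 49.2 CPM in siblings (log2 fold change -0.42, SE 0.110, adjusted p = 0.0177). It was not called without mutant library 5 (0.0693) or sibling library 5 (0.0712), nor with no filter (0.0613). Of 17 RNA polymerase III genes, listed as initiation factors and repressor, 2 fell and 1 rose. These shares, 11.8% and 5.88%, were both under those of all tested genes (13.9% and 14.5%), and the median was -0.02. The list was not one of initiation factors alone. brf1a, for a subunit of TFIIIB, was at 3.25, 3.60, 3.58 and 4.05 CPM in mutants and 7.24, 6.29, 8.57 and 12.7 CPM in siblings (log2 fold change -1.26, SE 0.252, adjusted p = 0.00515), and gtf3aa, for the 5S-specific factor TFIIIA, at 8.18, 6.05, 10.6 and 9.66 CPM in mutants and 17.7, 13.9, 14.9 and 19.4 CPM in siblings (log2 fold change -0.93, SE 0.204, adjusted p = 0.00817). maf1, the repressor of RNA polymerase III that mTORC1 phosphorylates, was at 33.2, 38.3, 32.7 and 37.4 CPM in mutants and 24.0, 27.1, 30.2 and 22.6 CPM in siblings, the one of the 17 that rose (log2 fold change 0.45, SE 0.128, adjusted p = 0.0276). Its call was lost without mutant library 2 (0.0716), sibling library 1 (0.0758) or 5 (0.0580) and when libraries were scaled by size alone (0.112).

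**Figure D4:**
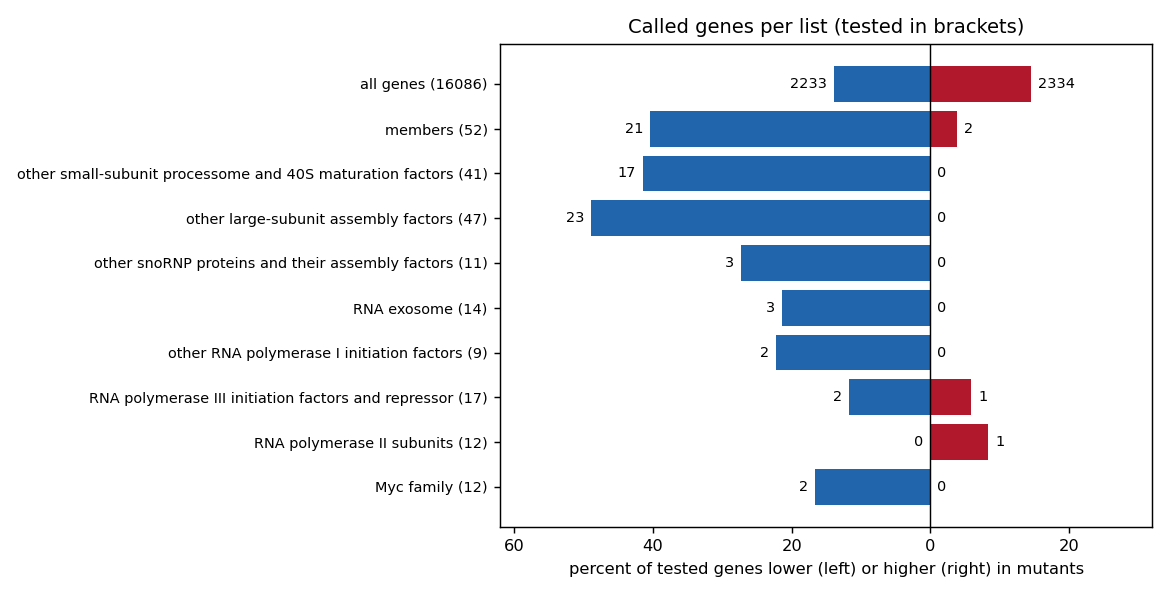
Percent of the tested genes of each list that were lower (left, blue) or higher (right, red) in mutants, with the number tested in brackets and the number called beside each bar. The small- and large-subunit lists reach 41.5% and 48.9% lower, against 13.9% of all genes, while of the 12 RNA polymerase II genes only polr2h, which is higher, was called.

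RNA polymerase II, which makes messengers, served as a comparison enzyme. Of its 12 tested subunit genes 1 rose (8.33%) and the other 11 did not pass, with a median of -0.15. Over all tested genes 14.5% rose and 13.9% fell. The riser, polr2h, encodes one of several subunits present in all nuclear RNA polymerases. Such shared subunits were not kept out of the list, so it was not wholly separate from RNA polymerases I and III. polr2h was at 23.8, 29.5, 34.5 and 21.1 CPM in mutants and 17.8, 18.8, 19.1 and 17.8 CPM in siblings (log2 fold change 0.57, SE 0.162, adjusted p = 0.0274). It was not called without mutant library 2 (0.0696) or 4 (0.0612), without any one of the 4 sibling libraries (0.0519 to 0.0686), or scaled by library size alone (0.0913). Myc transcription factors activate ribosome biogenesis. Of 12 tested genes listed with them, 2 fell, a share of 16.7% and near the 13.9% of all tested genes. The 12 also include mxd1, mxd3, mxd4, mlx, mlxip and maza, which are not Myc factors themselves, so the count is not one of activators alone. myca was at 18.3, 13.0, 16.0 and 17.1 CPM in mutants and 27.6, 25.6, 23.3 and 19.3 CPM in siblings (log2 fold change -0.57, SE 0.159, adjusted p = 0.0239), and lost its call without mutant library 2 (0.0620) or 5 (0.0517) or sibling library 1 (0.0693) or 2 (0.0641). mycla was at 13.7, 9.52, 13.4 and 17.6 CPM in mutants and 24.2, 20.5, 21.2 and 21.8 CPM in siblings (log2 fold change -0.70, SE 0.183, adjusted p = 0.0190), and lost its call without sibling library 1 (0.0541).

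**Figure D5:**
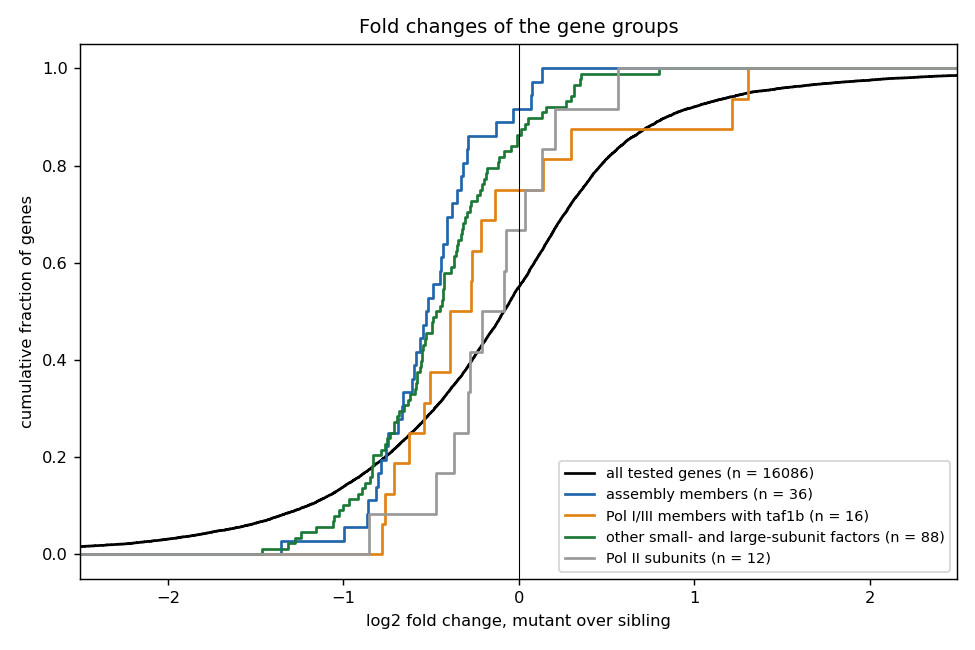
Cumulative fraction of genes by log2 fold change, mutant over sibling, for all 16086 tested genes, the 36 assembly genes, the 16 tested polymerase I/III genes with taf1b, 88 other subunit assembly factors and 12 RNA polymerase II subunits. The assembly genes and the other factors lie left of all genes around their medians (-0.52 for the assembly genes, -0.09 for all genes), while among the largest falls the curve of all genes is the higher one.

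Within the 52 genes the assembly factors and the polymerases can be set side by side. Of the 36 assembly, snoRNP and chaperone genes 18 fell and the rest did not pass, with a median of -0.52. Of the 16 polymerase genes with taf1b 3 fell (18.8%) and 2 rose (12.5%), with a median of -0.33. Those shares were near the 13.9% and 14.5% of all tested genes. The cytosolic ribosomal proteins, the cargo of this machinery, fell in 70 of 77 tested cases with a median of -0.87, and 1 rose. All 81 together took 3.98% ± 0.648 of unscaled counts in siblings and 1.99% ± 0.334 in mutants (SD, n = 4). These contrasts share the same libraries, and the differences between groups were not tested.

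Cell cycle markers did not move one way. Of 17, 4 fell and 5 rose. The genes that fell were mcm2, mcm3, mcm4 and mcm6, of the replicative helicase, and those that rose were ccnb1, ccna2, cdk1, aurkb and bub1, of mitosis. Their summed share was 0.134% to 0.175% in mutants and 0.132% to 0.230% in siblings, so the genotypes overlapped. The part of cell division in the results for ribosome biogenesis was not tested.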

How the data were processed

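The values deposited by the authors were raw counts, 1 row per Ensembl gene and 1 column per library (8 libraries). Per the submitters' processing notes, the build was GRCz11 and the tools included featureCounts 1.5.0, StringTie 1.3.3b and HISAT2 2.0.5. Their roles and the strand setting are not given in the sources used here. SMART-Seq v4 libraries were made from polyadenylated RNA, per the labels' protocols. The gene length in bases deposited by the authors was used only for levels per kilobase. A further 16 columns of per-library values were not used here.

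Columns were assigned to a genotype by name, and their numbers (1, 2, 4 and 5) differ from those in the titles, so none was tied to a titled sample. Same-numbered mutant and sibling libraries deviated together across genes (correlations 0.124 to 0.288, against -0.182 to -0.00667 for other pairs). The numbers were thus taken to pair libraries. The main test did not use this pairing, and an alternative fit used the numbers as a block. No library repeated another: counts of same-genotype libraries differed by a chi-square of at least 45.8 per degree of freedom. The sample titles call the libraries biological replicates of each genotype. Nothing further says that they came from separate animals, so p-values measure only the spread between these samples.

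Genes were filtered with filterByExpr (minimum count 10), scaled by TMM factors and tested with edgeR 4.0.16's quasi-likelihood test in R 4.3.3 (limma 3.58.1, DESeq2 1.42.0 in alternatives), two-sided, with Benjamini-Hochberg adjustment over 16086 genes at 0.05, after a test on simulated data. CPM used the TMM-scaled size, and the standard error was the log2 fold change divided by the square root of F. Named genes were a fixed panel, the 3 smallest p per role and direction, the genes on either side of the threshold, and the 2 called genes with the smallest p per list and direction. The members, lists and rule were chosen with earlier results of these data known. A planned search of promoters was not run, since no promoter sequence was used here. The values of 1 tested gene are not reported here, though the counts include it.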

Additional observations from a re-analysis of the deposited data

Results flagged for a closer look

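In 12 of 176 groups of 4 libraries checked, 1 library stood apart from the other 3 by more than Dixon's 95% limit. Chance alone flags about 1 in 20 groups. Mutant library 4 was the highest of its genotype in 6 of them. It held 5.88 CPM of polr3d (others 4.09 to 4.24), 89.1 of dkc1 (70.8 to 73.0), 46.7 of nop10 (28.2 to 30.9), 13.4 of utp3 (8.33 to 8.93), 69.0 of utp4 (46.7 to 47.5) and 48.8 of ebna1bp2 (36.7 to 37.8). Sibling library 2 was the lowest of its genotype for nop10, at 43.7 CPM (others 63.4 to 66.5), and for nop53, at 64.1 (77.2 to 78.3), and the highest for polr3a, at 7.38 (6.11 to 6.20). Sibling library 4 was the highest for polr1b, at 7.16 CPM (others 4.46 to 4.69). Mutant library 2 was the highest for polr1d, at 2.94 CPM (others 0.199 to 0.475), and the lowest for rrp8, at 1.58 (2.56 to 2.62). Of the genes with a call, dkc1, nop10, utp4 and nop53 kept it when any 1 library was left out.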

How the results depend on the processing

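Of the 23 called genes, 19 kept their call in every alternative that gave a value except glmTreat, and 4 did not (ebna1bp2, gnl3, rrp8 and npm1b). Of the 29 others, 13 gained a call in at least 1 alternative. With glmTreat against a fold of 1.5, 3 of the 52 genes fell and 1 rose. Of all tested genes 742 fell (4.61%) and 861 rose (5.35%). In the further lists, pooled, 12 fell and 0 rose, against 52 and 2 in the main test (13.9% and 14.5% of all tested genes). In the order given above, these lists held 41, 47, 11, 14, 9, 17, 12 and 12 tested genes. The pool took in the RNA polymerase II comparison genes and the genes listed with Myc. Its 2 risers were maf1 and polr2h, the latter from the RNA polymerase II list. The filter of 5 CPM in 4 libraries left 1 riser among the 52, since polr3gla was not tested under it. In the pooled further lists 0 rose with library size alone (10.3% of all tested genes), 4 with DESeq2 (17.8%) and 4 with the replicate block (17.8%). With 1 library left out 0 to 2 rose, where 11.6% to 13.3% of all tested genes did. The count of falling genes was 17 to 24 with 1 library left out, where 10.2% to 12.5% of all tested genes fell. It was 19 with median-of-ratios factors (12.5% of all tested genes), 19 with no filter (7.53%) and 23 with DESeq2 (15.5%). With limma-voom it was 24 (15.1%), with upper-quartile factors 25 (15.7%), and with the 5 CPM filter 25 of 42 tested (21.7%). The replicate block gave 30 (16.6%) and library size alone 31 (19.4%). The share of all genes thus moved with the setting as well. The block gave calls to nhp2, npm1a, nop2, polr1c, polr3a, polr3b, polr1e, nip7 and rrp7a and changed no other call of the 52. Library size alone moved the median of all genes from -0.09 to -0.26 and that of the 52 from -0.47 to -0.65, and the share of calls that were higher from 51.1% to 34.7%. The fall in the summed share, -0.127 percentage points, was -0.0966 over TMM-scaled sizes and -0.137 to -0.115 with 1 library left out. Without a call, 6 log2 fold changes changed sign. gar1 (0.13) was -0.0332 with library size alone and -0.17 to 0.47 with 1 library left out. imp3 (0.07) was -0.102 and -0.0377 to 0.16 likewise. imp4 (-0.03) was 0.0116 with median-of-ratios factors, 0.0123 with no filter, 0.0114 with DESeq2 and -0.12 to 0.0834 with 1 library left out. polr1d (-0.27) was -1.90 to 0.70 with 1 library left out. polr3c (0.14) was -0.0347 with library size alone. rrp9 (0.07) was -0.0949 with library size alone, -0.0240 with limma-voom and -0.39 to 0.25 with 1 library left out. The cause was not tested. A promoter search that had been listed as an alternative was not run. Depth limits the scarce genes: raw counts of the tested genes ran from 6 to 15773 per library.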

Other observations

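The reference table of gene names holds 6 further genes under names of this family that the deposited table lists under other names. utp25, deposited as diexf, fell from 25.4 to 18.2 CPM (log2 fold change -0.48, SE 0.132, adjusted p = 0.0225, edgeR's quasi-likelihood test), and twistnb (polr1f) fell as given above. The other 4 did not pass. cd3eap (polr1g) was at 11.8 CPM in mutants and 16.7 in siblings, znrd1 (polr1h) at 1.63 and 2.503, the gene listed as utp14c at 22.9 and 30.8, and the one listed as nop14 at 1.97 and 2.68. All 6 estimates were negative.

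The ratio of npm1b to npm1a in CPM was 0.140, 0.205, 0.0950 and 0.112 in mutants and 0.20, 0.209, 0.167 and 0.131 in siblings, in library order 1, 2, 4 and 5. These ranges overlapped, and the mutant ratio was the lower one in each of the 4 same-numbered pairs. The difference was not tested.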
